A study of Homo sapiens with 13 samples.

Results

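The undosed-only sites of compound 4 are 2192 genomic intervals that this polyamide marked in one of its deposited peak lists and not in the other. Compound 4 has a list named for 400 nM and a list whose name carries the compound alone, written here as the undosed list. Members were chosen by the peak calls themselves: a peak of the undosed list belongs to the set when it does not overlap any 400 nM peak of compound 4 by 1 bp or more. Of 3074 undosed peaks, 2192 met this rule (71.3%, exact 95% binomial interval 69.7 to 72.9%), out of 6064 peaks in all 4 lists of the series. The other 882 undosed peaks overlapped a 400 nM peak and are called shared peaks. In the 400 nM list, 715 of 1581 peaks had no undosed counterpart.

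The material was DNA from H1 cells, an established line of human embryonic stem cells, exposed to a polyamide for 24 h. Compound 4 was applied at 20 nM and at 400 nM, with 2 libraries per dose, and the study also held compound 2 at both doses, compounds 5 and 6 at 400 nM and 1 input library, 13 libraries in all. The labels do not tie the undosed list to either dose. Whether its calls drew on the 20 nM libraries, on the 400 nM libraries or on both is not stated, so the rule separates 2 lists and not 2 known doses. Each list stands alone without replicates and its read depth is unknown. The intervals below therefore cover counting error over peaks only, and no test was run over peaks, which are not replicates of a treatment.

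Pyrrole-imidazole polyamides lie in the minor groove of DNA, where neighbouring rings read the edges of base pairs, so a given order of rings prefers a given short sequence. In COSMIC the polyamide is joined to psoralen, which bonds to DNA under long-wave ultraviolet light, and to biotin, by which the bonded fragments are pulled down before sequencing. A peak is then a place where captured fragments piled up above their surroundings, and it can hold one strong site or several weak ones. All positions are given on the human build hg19, with band names by Giemsa staining. The bases and genes under the peaks were not analysed here.

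The undosed-only sites were mostly the weaker calls of the undosed list. The list gives each peak a score of unstated scale, as deposited by the authors, which can rank peaks within this list only. The median score was 50.4 for the undosed-only peaks (quartiles 45.9 and 59.2) and 117 for the shared peaks (quartiles 68.4 and 203). Of the undosed-only peaks, 1672 (76.3%) scored under 60, against 155 of the shared peaks (17.6%), and 51 undosed-only and 508 shared peaks scored above 100. These scores come from the same calls that chose the set, so they describe it and support nothing further.

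The change from shared to undosed-only ran gradually along the ranking. A single undosed-only peak stood among the first 200, 13 among the first 400, 36 among the first 500 and 330 among the first 1000. From the highest to the lowest sixth of the list by score, the undosed-only share was 7.60%, 60.4%, 82.2%, 89.9%, 92.4% and 95.5%. Shared peaks nevertheless reached down to rank 3045, and only 29 undosed-only peaks ranked below the last of them.

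**Figure D1:**
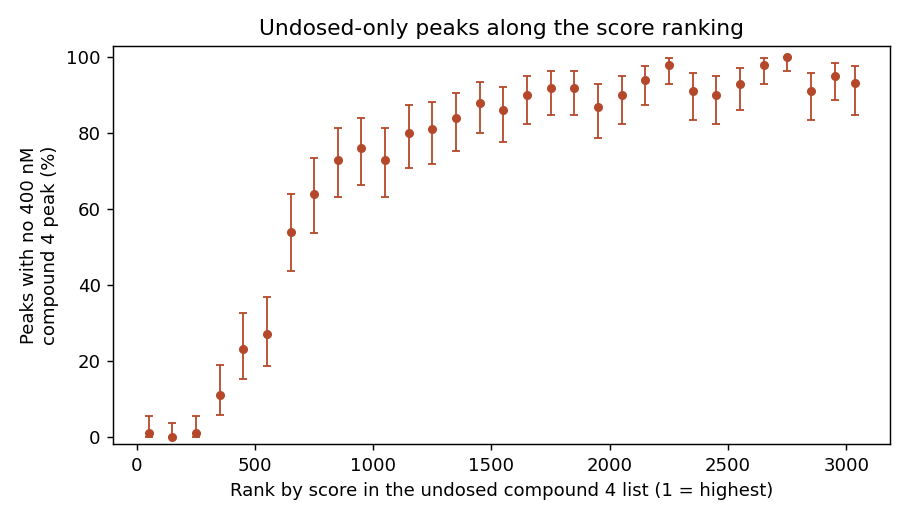
Share of undosed compound 4 peaks without a 400 nM compound 4 peak (y axis, percent) in consecutive groups of 100 peaks by score rank (x axis, 1 is the highest score; the last group is smaller). Points are shares and bars are exact 95% binomial intervals; the first 3 groups hold 1, 0 and 1 such peaks, and the share reaches 54.0% at ranks 601 to 700 and stays above 70% from rank 801 on.

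A small number of undosed-only sites were strong. By far the highest score belonged to a peak at 20p11.21 (chromosome 20, 22989387 to 22989726), with a score of 432 and rank 27. It was also one of only 2 undosed-only peaks that did not have the list's common width of 570 bp, at 340 bp. The other was a 197 bp peak at 9p13.2 (chromosome 9, 38168642 to 38168838), with score 136 and rank 397. Among shared sites 138 of 882 were narrower than 570 bp and 2 were wider.

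The next members in order were 5p15.32 (chromosome 5, 5774808 to 5775377), with score 200 and rank 229, and 18q21.1 (chromosome 18, 47879107 to 47879676), with score 160 and rank 320. The site at 5p15.32 was remote from the 400 nM list, with 13936 kb to its nearest peak there, whereas 18q21.1 had one at 27.7 kb. Ranks 322 and 324 were held by 15q26.1 (chromosome 15, 91591074 to 91591643; score 160) and 1p36.23 (chromosome 1, 9071482 to 9072051; score 159). The site at 14q12 (chromosome 14, 29324146 to 29324715) scored 151, and that at 2p22.1 (chromosome 2, 41489747 to 41490316) scored 147. The 10 highest were completed by 17q23.2 (chromosome 17, 58906685 to 58907254; score 144), 2p25.3 (chromosome 2, 978709 to 979278; score 142) and 3p21.2 (chromosome 3, 51949028 to 51949597; score 138). These 10 sites lay on 9 different chromosomes, and 20p11.21 alone among them met a compound 2 peak.

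At the other end, the 5 lowest members shared a score of 42.9, the level at which the list stops. They lay at 1p31.3 (chromosome 1, 68807085 to 68807654), 10q23.2 (chromosome 10, 88169449 to 88170018), 1p21.2 (chromosome 1, 99952998 to 99953567), 19q13.2 (chromosome 19, 42065761 to 42066330) and 10q26.3 (chromosome 10, 131065921 to 131066490). Their nearest 400 nM peaks were 145, 2022, 144, 32.4 and 619 kb away.

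Few undosed-only peaks were near misses. The rule itself keeps them off the 400 nM peaks, so their distances only describe the set. What distances lists of these lengths would give in any case was not tested. Only 6 undosed-only peaks had a 400 nM peak within 1 kb and 27 (1.23%, exact 95% interval 0.813 to 1.79%) within 10 kb, while 251 (11.5%) did within 100 kb. The median distance was 669 kb (quartiles 247 and 1473 kb). On the other side of the rule, the smallest overlap among shared peaks was 142 bp, at 16q12.1 (chromosome 16, 50519986 to 50520127) and at 10q11.23 (chromosome 10, 50394072 to 50394213), where it was the whole of the undosed peak. The median overlap was 544 bp. The 400 nM-only peaks were nearer to the undosed list, at a median of 351 kb, but that list is the longer one, so the distances in the 2 directions are not on equal terms.

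A slightly wider definition of a site would move the near misses into the shared class. The closest was at Yq11.221 (chromosome Y, 16344812 to 16345381; score 75.9, rank 828), 71 bp from a 400 nM peak. It was the sole undosed-only peak to overlap shared peaks of its own list, by 294 bp at 16344536 to 16345105 (rank 2097) and by 92 bp at 16344334 to 16344903 (rank 793). At 1p31.3 a peak (chromosome 1, 64197650 to 64198219; rank 1338) lay 437 bp from the 400 nM list. A pair at 7p14.1 (chromosome 7, 37886546 to 37887115, rank 427, and 37886749 to 37887318, rank 927) lay 809 and 606 bp from the 400 nM peak of rank 25. The fifth was at 7q34 (chromosome 7, 138382372 to 138382941; rank 1856), at 890 bp.

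**Figure D2:**
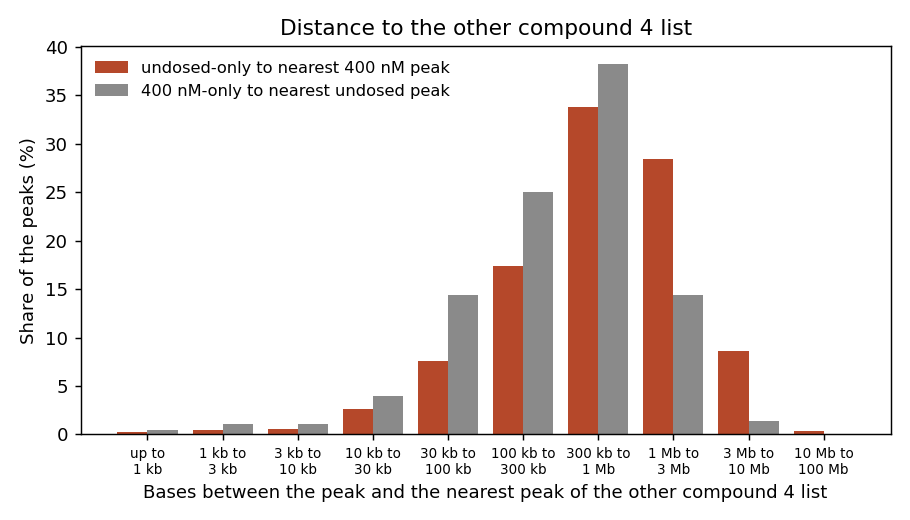
Share of peaks (y axis, percent of each class) by the number of bases to the nearest peak of the other compound 4 list (x axis, bins widening about 3-fold). Among undosed-only peaks 33.8% lay at 300 kb to 1 Mb and 28.4% at 1 to 3 Mb, and the bins up to 10 kb together hold 27 of 2192; the 400 nM-only peaks are set against a list with more peaks.

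Overlap with compound 2, a second polyamide of the series whose lists played no part in choosing the set, fell, within the undosed compound 4 list, almost wholly in the undosed-only class. In the whole undosed compound 4 list, 56 of 3074 peaks (1.82%) touched an undosed compound 2 peak. Of these, 55 were undosed-only and 1 was shared, which is 2.51% of undosed-only peaks (exact 95% interval 1.90 to 3.25%) and 0.113% of shared peaks (0.00287 to 0.630%). With the 400 nM compound 2 list, which is longer, the whole-list share was 0.520%. All 16 of these peaks were undosed-only (0.730%, 0.418 to 1.18%), and the count of 0 among 882 shared peaks allows a share of up to 0.340%. The intervals of the 2 classes do not meet in the comparison with the undosed compound 2 list, and in that with the 400 nM list they barely separate, since the exact upper bound for shared peaks is 0.417%. The 400 nM-only peaks of compound 4 had 0 of 715 on the undosed compound 2 list, which allows up to 0.420%, and 3 (0.420%, 0.0866 to 1.22%) on the 400 nM list, an interval that overlaps that of undosed-only peaks.

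Score differed between the classes too, so the overlap was read again at like ranks, a comparison chosen after seeing the data. In the second sixth of the list, 8 of 309 undosed-only and 1 of 203 shared peaks overlapped the undosed compound 2 list. Below rank 1025 the counts were 45 of 1844 (2.44%, exact 95% interval 1.79 to 3.25%) and 0 of 205, which allows up to 1.46% and has an exact upper bound of 1.78%. The intervals of the classes overlap within every single sixth and separate only at 1.79% against 1.78% when the lower 4 are pooled. These intervals count each peak singly and are too narrow, since the 55 overlapping undosed-only peaks of the whole list form 47 regions. The pooled separation therefore cannot show a difference at like ranks. The part that score plays in the overlap was not tested further.

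**Figure D3:**
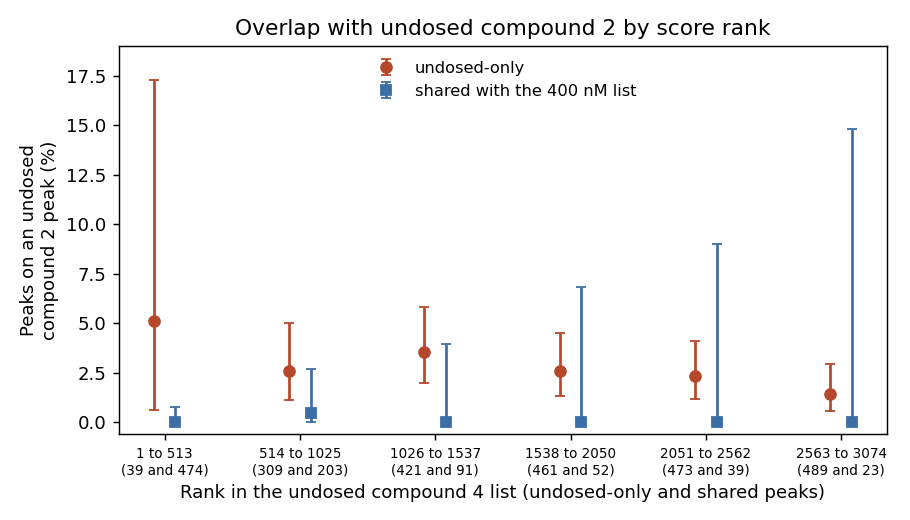
Share of undosed compound 4 peaks that overlap an undosed compound 2 peak (y axis, percent) in sixths of the list by score rank (x axis, with the numbers of undosed-only and shared peaks in brackets). Circles are undosed-only peaks, squares are shared peaks and bars are exact 95% binomial intervals; undosed-only shares run from 5.13% (2 of 39) in the first sixth to 1.43% (7 of 489) in the last, and shared peaks have 1 overlap in all.

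Where the compounds met, they met closely. The median overlap with the undosed compound 2 peak was 528 bp, the midpoints were a median of 63.0 bp apart, and 50 of the 55 overlapped by 300 bp or more. Where a site met several compound 2 peaks, the highest-ranked was taken. The 55 peaks formed 47 separate regions on 18 chromosomes once neighbours within 1 kb were joined. Their median score was 53.5, slightly above the 50.3 of the other undosed-only peaks. Still, they were mostly not the strongest members, with a median rank of 1622 among the 3074 undosed peaks. They were not mainly the strongest compound 2 sites either. Taking for each the highest-ranked compound 2 peak that it overlapped, 19 of the 55 met the upper 50% of the compound 2 list. Among these, 5 met one of the first 100 of its 486 peaks.

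The 5 highest-scoring sites of this kind were led by 20p11.21, whose compound 2 counterpart (22989378 to 22989761) ranked 2 in its own list, contained the compound 4 peak entirely and had its midpoint 13 bp away. The site at 9q31.3 (chromosome 9, 112477843 to 112478412; rank 422) held a short compound 2 peak of rank 202 within it, with an overlap of 162 bp. At 12q12 (chromosome 12, 39750141 to 39750710; rank 635) compound 2 had a peak in both of its lists, with ranks 115 and 520. At 10q26.13 (chromosome 10, 124760909 to 124761478; rank 658) and 7q31.31 (chromosome 7, 119369656 to 119370225; rank 681) the compound 2 peaks ranked 440 and 426, and neither site met the 400 nM compound 2 list.

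A group of 7 undosed-only sites of 2192 (0.319%, exact interval 0.128 to 0.657%) overlapped both compound 2 lists. In the whole undosed list this was 7 of 3074 (0.228%), and no shared peak did (0 of 882, exact upper bound 0.417%). These 7 sites were named after their values were seen, because neither shared nor 400 nM-only peaks (0 of 715, upper bound 0.515%) met both. The intervals of both these classes overlap that of the undosed-only peaks, so the counts do not set the classes apart. Besides 12q12 they lay at 10q21.1 (chromosome 10, 54054627 to 54055196), 8p23.1 (chromosome 8, 12417492 to 12418061), 20q11.21 (chromosome 20, 29635983 to 29636552), 20p12.2 (chromosome 20, 10848834 to 10849403), 9q33.3 (chromosome 9, 125908034 to 125908603) and 3q13.33 (chromosome 3, 120759668 to 120760237). The 8p23.1 site coincided with the first-ranked undosed compound 2 peak and the 400 nM compound 2 peak of rank 4, while in compound 4 it ranked 1325. At 20q11.21 the compound 2 ranks were 76 and 20. At 9q33.3 the compound 4 call ranked 2918 of 3074. The compound 2 calls there ranked 192 of 486 in the undosed list and 782 of 923 at 400 nM. Each of these places was thus called in 3 of the 4 lists, the exception, by the rule, being compound 4 at 400 nM.

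Seen from compound 2, 50 of its 486 undosed peaks (10.3%, exact 95% interval 7.73 to 13.3%) lay on an undosed-only compound 4 peak and 1 (0.206%) on a shared one. Of those 50, 9 (18.0%, 8.58 to 31.4%) also overlapped a 400 nM compound 2 peak, against 121 of the other 436 (27.8%, 23.6 to 32.2%), and these intervals overlap. Whether the lists used the same input library is not stated, and its part in places called for both compounds was not tested.

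The undosed-only sites were mostly solitary. Only 190 of 2192 (8.67%, exact 95% interval 7.52 to 9.92%) had another undosed peak within 1 kb, against 343 of 882 shared peaks (38.9%, 35.7 to 42.2%). The list holds 4 repeated intervals, all of them shared, and without the repeats the shared value was 335 of 878 (38.2%). Of the 400 nM-only peaks, 70 of 715 (9.79%, 7.71 to 12.2%) had another 400 nM peak that near, an interval that overlaps that of the undosed-only peaks. The difference from shared peaks was present in both parts of the score range: 12.0% (9.75 to 14.5%) against 40.4% (36.9 to 43.9%) in the upper 50% of the list and 6.89% (5.63 to 8.33%) against 28.9% (20.8 to 38.2%) in the lower 50%. Neighbouring peaks are not independent under the rule, since one 400 nM peak can make both of them shared. Joining undosed-only peaks within 1 kb gave 2098 regions, of which 2005 were single peaks, 92 were pairs and 1 held 3.

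The group of 3 lay at 6p22.3 (chromosome 6, 23871586 to 23873840), with scores of 49.2, 44.4 and 45.1. The highest-scoring pair was at 15q26.1 (chromosome 15, 91591074 to 91591843), with scores of 160 and 113. It was followed by 8q24.13 (chromosome 8, 125877214 to 125877992), with scores of 136 and 102, and by 9q31.3 (chromosome 9, 112477843 to 112478612), with 129 and 45.6. The pair at 7p14.1 named above, with 128 and 70.2, completed the 5 groups. In the 92 overlapping pairs the second peak began a nearly constant distance after the first, at a median of 209 bp and never under 199 bp, and 74 of the 92 distances fell from 199 to 229 bp. Shared peaks had the same crowding near 201 bp (their median) and in addition 45 pairs closer than 199 bp, or 41 without the 4 repeated intervals. How the lists were called is not given, and the source of this spacing was not tested.

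**Figure D4:**
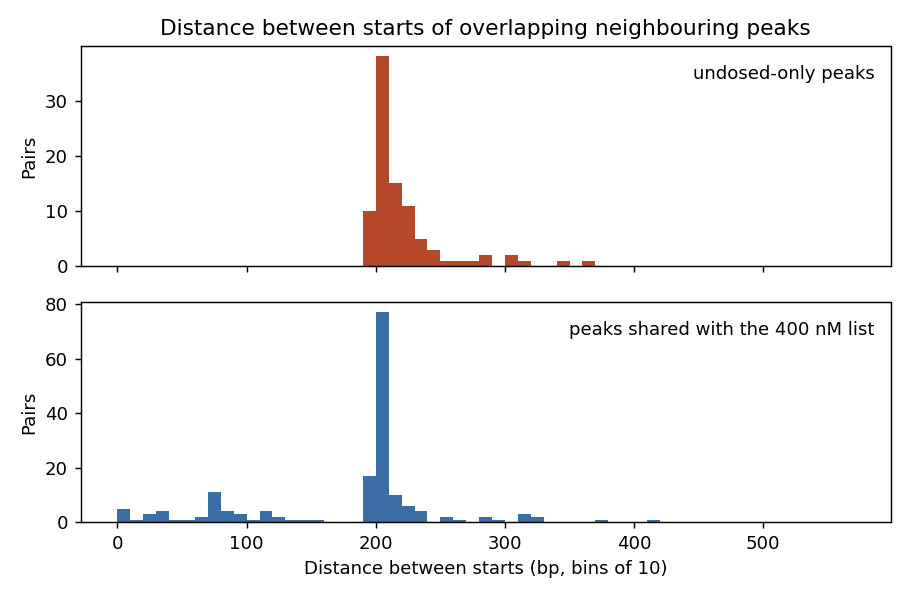
Distance between the starts of neighbouring peaks that overlap (x axis, bp in bins of 10) and the number of such pairs (y axis; the scales of the panels differ), for undosed-only peaks (upper panel, 92 pairs) and shared peaks (lower panel, 172 pairs). Both panels have their tallest bin just above 200 bp, with 38 and 77 pairs, and only shared peaks have pairs under 190 bp apart.

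Chromosomes differed in how much of the undosed list was undosed-only. On 17 of 22 autosomes the share lay between 65% and 80%. It was highest on chromosomes 13 (80 of 98 peaks, 81.6%, exact 95% interval 72.5 to 88.7%) and 18 (69 of 86, 80.2%, 70.2 to 88.0%). It was lowest among autosomes on chromosome 22 (13 of 27, 48.1%, 28.7 to 68.1%), chromosome 16 (46 of 91, 50.5%, 39.9 to 61.2%) and chromosome 20 (37 of 66, 56.1%, 43.3 to 68.3%). Chromosome X had 22 of 50 (44.0%, 30.0 to 58.7%) and chromosome Y 3 of 16 (18.8%, 4.05 to 45.6%). The intervals for chromosomes 16, 20, 22, X and Y lie below the 71.3% of the whole list, and that for chromosome 13 lies above it.

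These chromosomes also differed in score. The median score of all undosed peaks was 65.5 on chromosome 16, 62.3 on 20, 69.6 on 22, 73.9 on X and 138 on Y, against 54.8 over the list. Among the lower-scoring 50% of the list, where 92.6% of peaks were undosed-only, the shares on chromosomes 16, 20 and X were 86.2%, 87.5% and 81.2%, and chromosome 22 had 8 of 10, with exact intervals that all include 92.6%. Joining peaks within 1 kb changed the order little, with 55.7% on chromosome 16, 61.7% on 20, 54.2% on 22 and 47.7% on X against 74.7% over the list. Chromosome 13 no longer stood apart in either reading, with 82.6% (73.3 to 89.7%) of merged regions and 91.7% of the lower-scoring 50%.

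**Figure D5:**
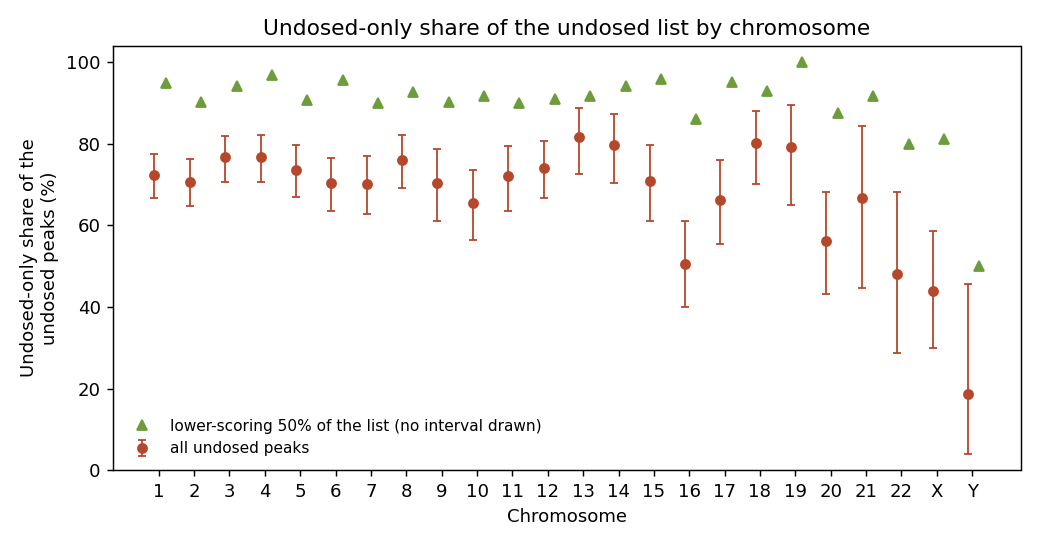
Undosed-only share of the undosed compound 4 peaks (y axis, percent) by chromosome (x axis). Circles with bars are all peaks with exact 95% binomial intervals, and triangles are the lower-scoring 50% of the list; the circles of chromosomes 16, 20, 22, X and Y sit between 18.8% and 56.1%, while most triangles sit above 85%.

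In numbers per length, the set was spread over the genome at 0.708 peaks per Mb, with 0.957 on chromosome 8 and 0.253 on chromosome 22 as the extremes among autosomes. Chromosome X had 0.142 per Mb, led by Xq23 (chromosome X, 110155410 to 110155979; score 106, rank 531). Lengths include unsequenced stretches. The 3 members on chromosome Y were the near miss at Yq11.221 and peaks at Yp11.2 (chromosome Y, 8426097 to 8426666, rank 982, and 7226912 to 7227481, rank 3066).

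Giemsa bands divide chromosomes into pale stretches, in general richer in genes and GC, and dark ones that are richer in AT. The undosed-only sites lay slightly more often in the darkest class than shared peaks did. The counts were 431 of 2192 (19.7%, exact 95% interval 18.0 to 21.4%) against 131 of 882 shared peaks (14.9%, 12.6 to 17.4%), where this class makes up 16.1% of the length of the chromosomes. The whole undosed list had 18.3%, which lies inside the interval of the undosed-only peaks, and the 400 nM-only peaks had 13.3% (10.9 to 16.0%). In the upper 50% of the list by score the shares of undosed-only and shared peaks were 21.5% (18.6 to 24.5%) and 14.5% (12.0 to 17.1%), and their intervals separate. In the lower 50% they were 18.7% (16.7 to 20.8%) and 17.5% (11.1 to 25.8%), and their intervals overlap. Unstained bands held 41.6% of undosed-only and 44.7% of shared peaks, with overlapping intervals (39.5 to 43.7% and 41.4 to 48.0%), against 42.2% of the length. Of the 55 undosed-only sites on undosed compound 2 peaks, 19 (34.5%, 22.2 to 48.6%) lay in the darkest bands, an interval that is too narrow because these peaks form 47 regions. Bands of variable heterochromatin held 18 undosed-only peaks (0.821%, 0.487 to 1.29%) and 0 shared peaks, which allows up to 0.340%, against 4.15% of the length. In the whole undosed list the share was 0.586%. Of the 400 nM-only peaks 5 of 715 lay there (0.699%, 0.227 to 1.62%), an interval that overlaps that of the undosed-only peaks.

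Single bands of at least 1 Mb were most densely occupied at 14q13.2 and 14q31.2 (4 undosed-only peaks each, 3.08 per Mb), 15q12 (7 peaks, 2.92 per Mb), 8q21.12 (5 peaks, 2.78 per Mb) and 8q24.12 (9 peaks, 2.73 per Mb). None of these bands held a shared peak, and 14q31.2, 15q12 and 8q24.12 held no 400 nM compound 4 peak at all. Undosed-only peaks occurred in 629 of 862 bands, shared peaks in 432 and 400 nM compound 4 peaks in 583. By the rule, a band without a 400 nM peak can hardly hold a shared one. In 137 bands, holding 333 undosed-only peaks (15.2%), the 400 nM list had no peak. The bands 3q13.13 and 3q11.2, with 7 each, were among these.

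The share of sites near centromeres and chromosome ends was somewhat lower for undosed-only than for shared peaks, with intervals that separated in some readings only. Within 5 Mb of a centromere lay 126 undosed-only peaks (5.75%, exact 95% interval 4.81 to 6.81%), 76 shared peaks (8.62%, 6.85 to 10.7%) and 87 of the 715 400 nM-only peaks (12.2%, 9.86 to 14.8%). The interval for undosed-only peaks ends just below that of shared peaks. Within 10 Mb the shares were 12.7% (11.3 to 14.1%) for undosed-only and 15.4% (13.1 to 18.0%) for shared peaks, whose intervals overlap, and 17.1% (14.4 to 20.0%) for 400 nM-only peaks. The centromere bands themselves held 7 undosed-only peaks (0.319%) and 3 shared peaks (0.340%), against 28 of the 400 nM-only peaks (3.92%, 2.62 to 5.61%). Of the 7, 5 were in 3p11.1, the highest at chromosome 3, 89825107 to 89825676 (score 97.6, rank 572). Within 5 Mb of a chromosome end the shares were 4.47% (3.64 to 5.42%) for undosed-only and 6.01% (4.53 to 7.79%) for shared peaks, with overlapping intervals. Within 10 Mb they were 9.44% (8.25 to 10.7%) and 13.4% (11.2 to 15.8%), whose intervals separate, and 7.97% (6.09 to 10.2%) for 400 nM-only peaks. The order of undosed-only and shared peaks was thus alike at both distances and both landmarks, but whether the intervals met depended on the distance chosen. In the whole undosed list the shares were 6.57% within 5 Mb and 13.5% within 10 Mb of a centromere. For chromosome ends they were 4.91% and 10.6%. Each of these whole-list shares lies inside the interval of the undosed-only peaks.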

How the data were processed

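The lists were deposited by the authors as chromosome, start, end and 1 score per peak. Its scale is unknown, so the deposited score ranked peaks within a list only. The submitters' processing notes name CASAVA 1.8.2, Bowtie 1.0 and HOMER beside the build hg19. For the role of each tool, the calling settings, pooling of libraries and use of the input, the sources used here give nothing. The 400 nM lists were assigned to their groups by name and the undosed lists to none. Positions are printed 1-based.

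Overlap meant 1 bp or more, and distance the bases between 2 peaks. Shares carry exact (Clopper-Pearson) 95% intervals, and a count of 0 a limit of 3 counts. No test was run. Chromosome lengths came from GenomeInfoDb 1.38.1 and bands from circlize 0.4.16, by peak midpoint. The interval functions were tested on simulated data. The work used Python 3.11.15, numpy 2.4.6, pandas 2.3.3, scipy 1.17.1 and matplotlib 3.10.9. Members and measures were chosen with earlier results of these data known. Named were the 10 highest-scoring members, the 5 lowest, the 5 nearest to the 400 nM list, the 5 highest on compound 2 peaks, and the 5 leading groups and bands. Alternatives were other overlap rules, merged peaks, the upper or lower 50% by score and other distances.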

Additional observations from a re-analysis of the deposited data

How the results depend on the processing

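The number of undosed-only sites was 2309 with a reciprocal overlap of 50%, 2190 with midpoints within 1 kb, 2165 when any 400 nM peak within 10 kb counted as overlap and 2099 with overlapping peaks merged first. With the upper 50% of each list by score it was 904, with fewer peaks in both lists. The median score rose to 51.0 with a reciprocal overlap of 50%. Wider distances raised the counts, to 251 sites within 100 kb of a 400 nM compound 4 peak, 12.7% within 10 Mb of a centromere and 9.44% within 10 Mb of a chromosome end. The overlap with undosed compound 2 peaks was 50 sites with a reciprocal overlap of 50%, 55 with midpoints within 1 kb, and 8 with the upper 50% of each list, again with fewer peaks in both. No paired analysis was possible because each list stands for a compound without its replicates, and for that reason no library could be left out in turn. The planned counts of GAA repeats and of genes under the peaks were not run, since they need sequence and annotation of hg19.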
